A study of Mus musculus with 12 samples.

Results

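The 10 genes described here encode 4 NFAT transcription factors (*Nfatc1*, *Nfatc2*, *Nfatc3* and *Nfat5*), the 3 catalytic subunits of the phosphatase calcineurin (*Ppp3ca*, *Ppp3cb* and *Ppp3cc*) and 3 proteins that bind and restrain calcineurin (*Rcan1*, *Rcan3* and *Cabin1*). They were picked by gene symbol, and *Ppp3r1*, which encodes the regulatory subunit and is expressed in these cells, is described beside them. All 10 were found among the 25860 genes listed in RNA-seq, and all 10 passed the filter on low values that left 14459 genes for testing. In ATAC-seq, 40 of the 23932 listed peaks carried the name of 1 of the 10 genes.

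The cells were T_prog_ cells, the stem-like CD8+ progenitors of the pancreatic lymph node, from nonobese diabetic (NOD) mice, with 3 libraries for each genotype in RNA-seq and 3 in ATAC-seq. *NOD-TCR 8.3 UTX TCD* mice carried *UTX fl/fl*, floxed alleles of *Kdm6a*, together with *Lck-Cre*, so the histone demethylase UTX was deleted in the whole T lineage and not in CD8+ cells alone. *NOD-TCR 8.3 WT* mice are the UTX-sufficient group, and the paper names littermates without Cre as controls for the line that lacks the receptor transgene, without saying more for this one. Both genotypes carried the 8.3 T cell receptor transgene, which fixes the specificity of the T cells to a peptide of the β cell protein IGRP. Females only were studied, and the *UTX fl/fl* and *Lck-Cre* alleles had been crossed from B6 onto NOD for more than 10 generations. The labels give no age for the mice behind these libraries. Among mice with the receptor transgene, the paper gives an age only for the donors of a transfer experiment. For ATAC-seq the paper gives its number of replicates as a number of mice, and for RNA-seq pooling is not stated. The sort gate is Ly108 without CXCR6 in the labels and Ly108 without CD39 in the paper.

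Calcineurin is a phosphatase built from a catalytic A subunit and a regulatory B subunit, and it is switched on when T cell receptor signalling raises cytosolic calcium. The active enzyme removes phosphates from the NFATc proteins, which then enter the nucleus and switch on activation genes together with partners such as AP-1, whereas NFAT5 answers osmotic stress without calcineurin. In CD8+ T cells the same factors act both in effector activation and, when AP-1 is scarce, in the programs of exhausted cells.

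RNA-seq values are normalized counts, that is, reads per gene divided by a size factor for each library. The WT libraries held 146456724, 144503203 and 193568919 counted reads, and the UTX TCD libraries held 61512402, 175462433 and 187275082. UTX TCD replicate 1 was thus the shallowest library, and 3 reads, the floor used here, correspond there to a normalized count of 6.75, against 2.21 to 2.97 in the other libraries. *Kdm6a* itself was counted at 28365, 28949 and 29172 in WT and at 24158, 24792 and 24579 in UTX TCD libraries. All UTX TCD values lay below all WT values, and a count over the whole gene does not separate the deleted exons from the rest.

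Of the 10 genes, 6 passed an adjusted p of 0.05 in limma, against 40.7% of all genes tested. They were 2 genes higher in UTX TCD cells, *Nfat5* and *Ppp3ca*, and 4 lower, *Nfatc1*, *Nfatc2*, *Nfatc3* and *Ppp3cc*, where 20.2% of tested genes were higher and 20.5% lower. None of the 10 also had an absolute log2 fold change over 0.5, which 17.6% of tested genes had, and edgeR and DESeq2 gave 0 such genes as well, as did limma at an unadjusted p under 0.05. The 3 values of each genotype did not overlap for 6 of the 10 genes, the same 6, against 51.9% of tested genes. Here a p-value sets the difference between the genotypes against the spread among libraries of the same genotype, for these 6 libraries. In limma that spread also draws on the other genes tested. For a single gene an exact permutation test of 3 against 3 cannot go below 0.10. Across all genes tested, 2924 were higher and 2963 lower, and with each library scaled to the same total the split was 3793 higher and 2184 lower. The 6 genes kept their direction and their call under that scaling and under each of the 15 alternatives run.

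**Figure D1:**
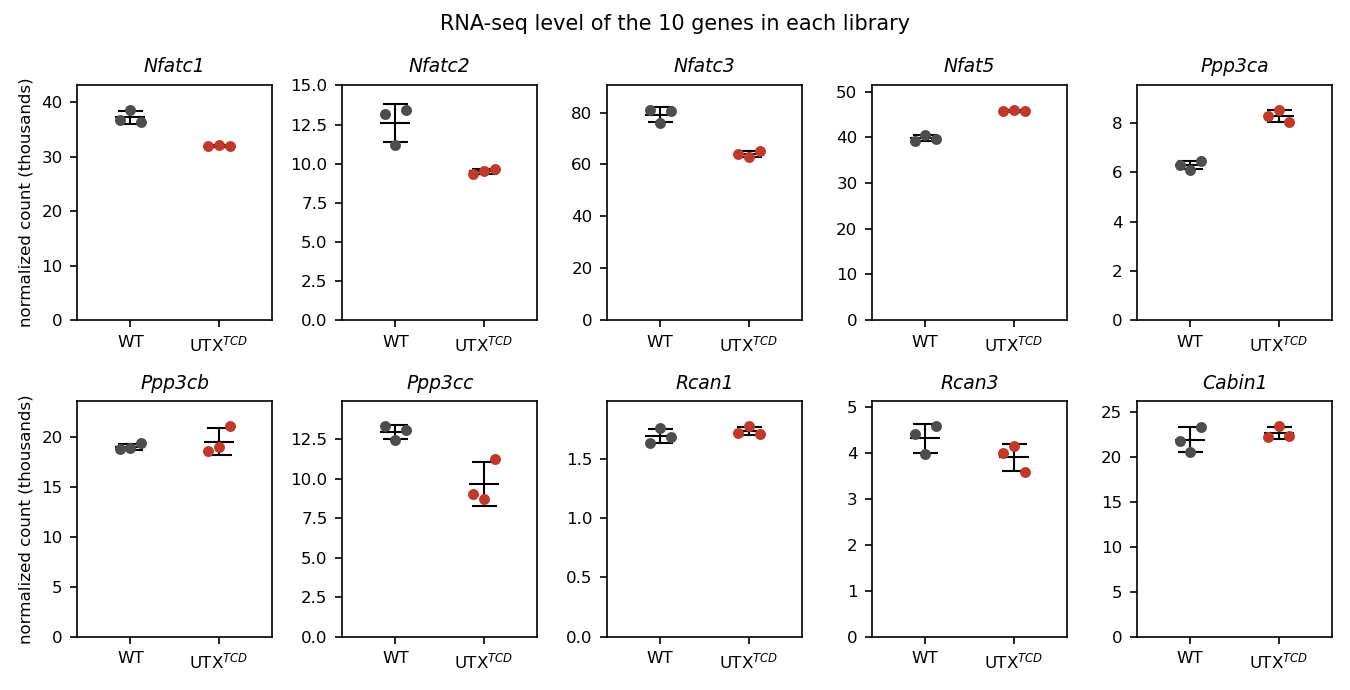
Normalized counts (linear axes from 0) of the 10 genes in each RNA-seq library, with 3 points per genotype, the mean as a bar and the SD as whiskers. *Nfatc1*, *Nfatc2*, *Nfatc3* and *Ppp3cc* sit lower and *Nfat5* and *Ppp3ca* higher in UTX TCD cells with no overlap of the groups, while *Ppp3cb*, *Rcan1*, *Rcan3* and *Cabin1* overlap.

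*Nfatc3*, which encodes the NFAT factor with the highest level per kilobase here, lies on chromosome 8 of GRCm38 (mm10) from 106058840 to 106130537. It was counted at 81089, 76112 and 80559 in WT and at 64180, 62764 and 65308 in UTX TCD libraries. The lowest WT value stood above the highest UTX TCD value by a wide margin compared with the spread within either group. The mean fell from 79253 ± 2734 to 64084 ± 1275 (SD, n = 3 each), a log2 fold change of -0.31 with a 95% confidence interval of -0.41 to -0.21 (adjusted p = 0.000635 from limma, SE 0.04). Exons of *Esrp2* on the opposite strand cover 1.87% of the exon bases of *Nfatc3*, and reads there cannot be told apart without the strand setting of the counting. In a bulk sample, fewer cells that express a gene and less of its RNA per cell cannot be told apart, and this holds for all RNA values given here.

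*Nfatc1*, whose product is amplified by NFAT activity itself in stimulated lymphocytes, lies on chromosome 18 from 80606205 to 80713071. Its counts were 36669, 38641 and 36468 in WT and 31899, 32139 and 31947 in UTX TCD libraries. The UTX TCD values were tightly grouped, with an SD of 127 against 1201 in WT, and all lay below the WT values. The mean fell by 14.1%, and the log2 fold change of -0.22 had a 95% confidence interval of -0.31 to -0.13. The RNA profiles closest to that of *Nfatc1* over the 6 libraries were those of *Tspan5*, *Paip2*, *Rgs10*, *Atg14* and *Cyria*, with Pearson's r between 0.997 and 0.998. Such an r mainly follows the step between the genotypes, since the 6 libraries form 2 groups.

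*Nfatc2*, which encodes NFAT1, a factor present in resting T cells, lies on chromosome 2 from 168476410 to 168601657. Its counts were 13173, 11175 and 13447 in WT and 9342, 9552 and 9657 in UTX TCD libraries. WT replicate 2 was the lowest of its group and still above all UTX TCD values. The mean fell by 24.5%, the largest relative decrease among the NFAT genes, and the 95% confidence interval of the log2 fold change ran from -0.55 to -0.25. When WT replicate 2 was left out, the log2 fold change was -0.48. Nearest in profile to *Nfatc2* were *Tbc1d16*, *Tapt1*, *Slk*, *Rps27rt* and *Akap17b*, with r between 0.997 and 1.00 over the same 6 libraries.

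*Nfat5*, the osmotic stress factor, lies on chromosome 8 from 107293470 to 107379517 and went the other way. Its counts were 39270, 40488 and 39527 in WT and 45633, 46013 and 45768 in UTX TCD libraries. Within each genotype the values were close together, and the groups were clearly apart. The mean rose from 39762 ± 642 to 45805 ± 193 (SD, n = 3 each), or by 15.2%, with a log2 fold change of 0.20 and a 95% confidence interval of 0.12 to 0.29 (adjusted p = 0.00243 from limma, SE 0.04). *Nfatc4*, the remaining NFAT gene, was near 0 and was not tested, its reads numbering 0, 4 and 0 for WT and 0, 1 and 0 for UTX TCD.

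Levels of different genes were compared per kilobase of exon, taking the union of the exons in GENCODE. By count *Nfat5* stood above *Nfatc1* in both genotypes. The order and the shares below therefore rest on exon lengths such as 18378 bases for *Nfat5* and 7469 for *Nfatc1*, which the authors' gene models may not share. In WT cells the order of the NFAT genes was *Nfatc3* at 6759 ± 233 normalized counts per kb (SD, n = 3), *Nfatc1* at 4988 ± 161, *Nfat5* at 2164 ± 34.9 and *Nfatc2* at 1191 ± 117. In UTX TCD cells the order was the same, at 5465 ± 109, 4284 ± 17.1, 2492 ± 10.5 and 900 ± 15.2, and neighbours in the order differed beyond their spread in both genotypes. Summed over the 3 calcium-regulated factors, the level per kb was 13070, 12721 and 13024 in WT and 10627, 10559 and 10760 in UTX TCD libraries, and its mean fell by 17.7%. The make-up of that sum moved little, since *Nfatc1* held 38.6% of it in WT and 40.2% in UTX TCD cells, *Nfatc2* 9.20% and 8.45%, and *Nfatc3* 52.2% and 51.3%. With *Nfat5* higher and the other 3 lower, its share of all 4 NFAT genes went from 14.3% ± 0.380 to 19.0% ± 0.188 (SD, n = 3 each).

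Among the calcineurin subunits, *Ppp3ca* and *Ppp3cc* differed in opposite directions. *Ppp3ca*, which encodes the α form of the catalytic subunit, lies on chromosome 3 from 136670124 to 136937727. Its counts were 6296, 6118 and 6456 in WT and 8298, 8547 and 8061 in UTX TCD libraries. Every UTX TCD value was above every WT value, and the gap was several times the spread. The mean rose from 6290 ± 169 to 8302 ± 243 (SD, n = 3 each), or by 32.0%, with a log2 fold change of 0.40 and a 95% confidence interval of 0.30 to 0.50 (adjusted p = 0.000165 from limma, SE 0.05).

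*Ppp3cc*, which encodes the γ form, lies on chromosome 14 from 70217865 to 70289471. Its counts were 13338, 12499 and 13107 in WT and 9058, 8734 and 11247 in UTX TCD libraries. UTX TCD replicate 3 stood between the other UTX TCD libraries and the WT libraries, without reaching the latter. The mean fell from 12982 ± 434 to 9680 ± 1367 (SD, n = 3 each), a log2 fold change of -0.43 with a 95% confidence interval of -0.63 to -0.24 (adjusted p = 0.00394 from limma, SE 0.09). Without UTX TCD replicate 3 the log2 fold change was -0.54, past the limit of 0.5, with an adjusted p of 0.000123, and over the 15 alternatives the adjusted p ran from 1.5e-05 to 0.0169. Of the exon bases of *Ppp3cc*, 3.05% are shared with *Gm49417* on the opposite strand.

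*Ppp3cb*, which encodes the β form, lies on chromosome 14 from 20499364 to 20546573. It was counted at 18820, 18913 and 19392 in WT and at 18596, 18984 and 21089 in UTX TCD libraries. The groups overlapped, with UTX TCD replicate 3 the highest of all 6 libraries, and the log2 fold change of 0.04 did not pass the test (95% confidence interval -0.08 to 0.16, adjusted p = 0.619 from limma). The sign turned to -0.02 without UTX TCD replicate 3.

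Per kilobase, *Ppp3cc* held the largest share of the 3 catalytic mRNAs in every library, while by count *Ppp3cb* was higher, so the order and the shares rest on exon lengths of 2985 bases for *Ppp3cc*, 8809 for *Ppp3cb* and 9981 for *Ppp3ca*, taken over all their transcripts. The gene models behind the counts are not stated and may be shorter. Its share was 61.8%, 60.3% and 60.7% in WT and 50.8%, 49.3% and 54.1% in UTX TCD libraries. *Ppp3ca* held 8.72%, 8.82% and 8.93% in WT and 13.9%, 14.4% and 11.6% in UTX TCD libraries. *Ppp3cb* made up the rest, with 30.3% ± 0.698 and 35.3% ± 0.973 (SD, n = 3 each), so its share was higher while its own level did not pass the test. For each of the 3 genes the shares of the genotypes did not overlap, and UTX TCD replicate 3 lay nearest to WT in all of them. The summed level of the 3 genes per kb was 7236, 6947 and 7239 in WT and 5977, 5937 and 6969 in UTX TCD libraries, where only replicate 3 overlapped the WT range.

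**Figure D2:**
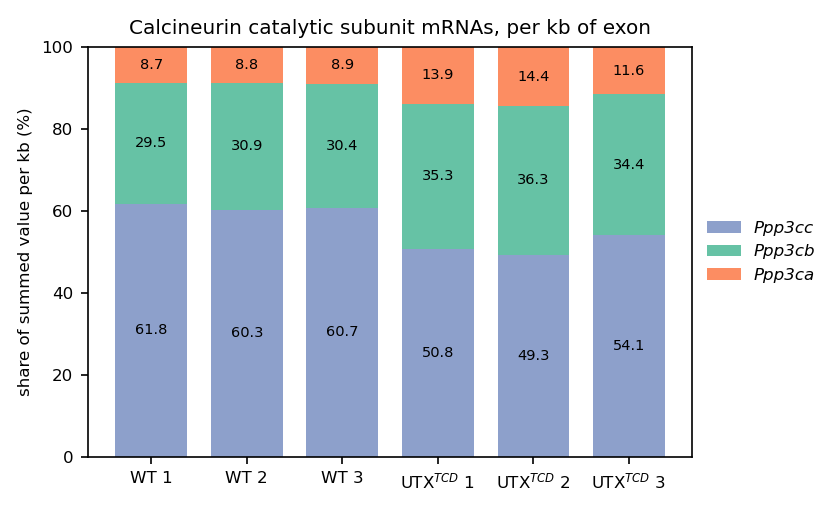
Share of each calcineurin catalytic subunit (percent of the summed normalized count per kb of exon) in each RNA-seq library. *Ppp3cc* makes up 60.3 to 61.8% in the WT libraries and 49.3 to 54.1% in the UTX TCD libraries, and *Ppp3ca* 8.72 to 8.93% and 11.6 to 14.4%.

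The regulatory subunit is encoded by *Ppp3r1*, on chromosome 11 from 17159263 to 17200375. It was counted at 23087, 23491 and 23910 in WT and at 19396, 20096 and 21021 in UTX TCD libraries, without overlap of the groups. The log2 fold change was -0.22 (adjusted p = 0.00347 from limma, SE 0.04). Exons of *Wdr92* on the same strand cover 14.3% of its exon bases, so part of these reads may belong to that gene. *Ppp3r2*, the testis form, had at most 2 reads in any library.

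The 3 inhibitors did not pass the test. *Rcan1*, a feedback inhibitor whose short form is itself a transcriptional target of NFAT, lies on chromosome 16 from 92391953 to 92470867 and was counted at 1637, 1758 and 1682 in WT and at 1719, 1776 and 1714 in UTX TCD libraries. The groups overlapped, with a log2 fold change of 0.04 (95% confidence interval -0.11 to 0.18, adjusted p = 0.676 from limma). *Rcan3*, of the same family, was counted at 4406, 3966 and 4574 in WT and at 3990, 4142 and 3577 in UTX TCD libraries. Its values overlapped as well, and its log2 fold change was -0.14 (95% confidence interval -0.31 to 0.02, adjusted p = 0.152 from limma). *Cabin1*, a nuclear scaffold that binds calcineurin and holds MEF2 with histone deacetylases, was counted at 21844, 20610 and 23355 in WT and at 22224, 23448 and 22385 in UTX TCD libraries. The groups overlapped, through the highest WT value (log2 fold change 0.05, 95% confidence interval -0.07 to 0.17, adjusted p = 0.484 from limma). *Rcan2* had at most 4 reads in any library.

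Catalytic subunits and inhibitors were also set in order per kb. In WT cells *Ppp3cc* was at 4349 ± 145 normalized counts per kb (SD, n = 3), *Ppp3cb* at 2162 ± 34.8, *Cabin1* at 1805 ± 113, *Rcan3* at 844 ± 61.4, *Ppp3ca* at 630 ± 16.9 and *Rcan1* at 549 ± 19.8, each apart from its neighbour by more than the spread. In UTX TCD cells *Ppp3ca*, at 832 ± 24.3, stood above *Rcan3*, at 764 ± 57.3, within each library, although the ranges of this pair over the libraries overlapped.

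In ATAC-seq the values are the authors' group means of log2 concentration, the log2 of the mean normalized read number in a peak, without values per library, so no error or test goes with them. Every listed peak had passed an FDR of 0.05 in the authors' own comparison, so the listed peaks are those that differed and peaks that did not differ are not among them. Of the 10 genes, 7 had at least 1 listed peak, against 47.6% of the genes tested in RNA-seq. Of their 40 peaks, 27 had the higher group mean in UTX TCD cells, where 68.8% of all listed peaks did, and 13 the lower. Introns held 29 of the 40 peaks, 7 were intergenic, 2 lay in a 3′ UTR, 1 in a non-coding exon and 1 at a promoter. No listed peak carried the name of *Nfat5*, *Ppp3cb* or *Rcan3*, and 1 higher peak named for another gene lay in *Rcan3* or within 5 kb of it.

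**Figure D3:**
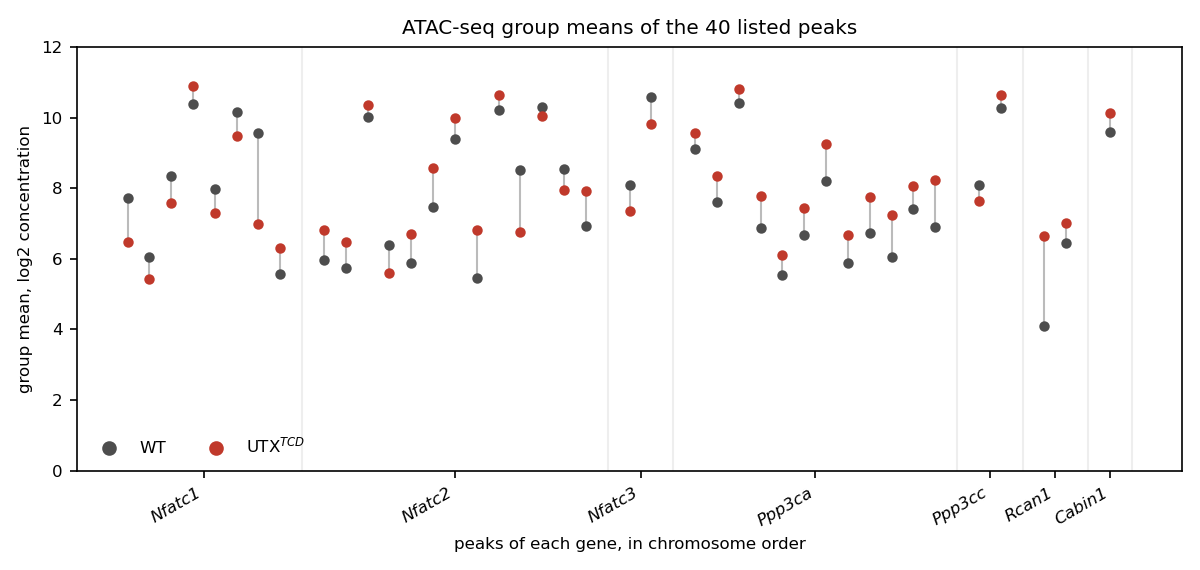
Group means (log2 concentration) of the 40 listed ATAC-seq peaks of 7 genes, with the peaks of each gene in chromosome order and a line joining the WT and UTX TCD means of a peak. All 12 peaks of *Ppp3ca* are higher in UTX TCD cells, 6 of 8 peaks of *Nfatc1* are lower, and the widest steps are at a peak of *Nfatc1* (9.58 to 6.97) and at the promoter peak of *Rcan1* (4.10 to 6.63).

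*Ppp3ca* had 12 peaks, and all 12 had the higher mean in UTX TCD cells. Their differences ran from 0.40 to 1.33 with a median of 0.77. Intron 1 of *Ppp3ca* held 8 of the peaks, at 18.1 to 101.5 kb from the transcription start site. Outside the gene lay 3 of the 12 peaks, and to which gene these belong was not tested. The peak with the largest difference lay past the 3′ end of the gene, at chr3:136941015-136941415 (mm10), with 6.89 in WT and 8.22 in UTX TCD cells. The mRNA of *Ppp3ca* was also the one with the lowest adjusted p of the 10.

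*Nfatc2* held peaks of both directions, 9 higher and 4 lower in UTX TCD cells. Of its peaks in intron 3, all 4 were higher in UTX TCD cells, and the highest gain among them was at chr2:168561936-168562336, from 5.46 to 6.81. Of the lower peaks, chr2:168595672-168596072 in intron 1 went from 8.55 to 7.94, and another lay in intron 5 at chr2:168531359-168531759. Not every peak of *Nfatc2* is described here, so the peaks given do not show whether its largest difference was a gain or a loss. Close to the starts of its transcripts, the peak at chr2:168589932-168590332, 0.233 kb past an internal start, went from 10.29 to 10.03, and the peak at chr2:168601149-168601549, 0.308 kb past the upstream start, went from 6.92 to 7.91. The peaks near these starts therefore differed in opposite directions, and counts per gene do not separate the transcripts that begin at them.

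**Figure D4:**
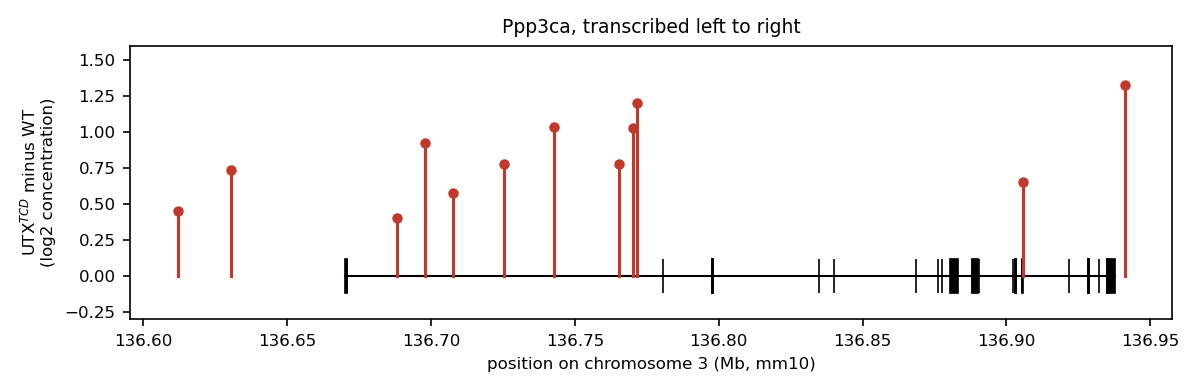
Map of *Ppp3ca* on chromosome 3 (position in Mb, mm10) with exons of all GENCODE transcripts as black boxes (the narrowest drawn at the width of a line) and each listed ATAC-seq peak as a stem whose height is the UTX TCD group mean minus the WT group mean (log2 concentration). All 12 stems point up, and 8 of them stand in intron 1.

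For *Nfatc1* 6 of 8 peaks had the lower mean in UTX TCD cells. Of those inside the gene, 3 were lower, among them a peak in intron 9 at chr18:80628967-80629367 that went from 7.72 to 6.48, and 1 in intron 2 was higher, going from 10.39 to 10.88. The widest step among the peaks of the 10 genes was outside *Nfatc1*, at chr18:80735794-80736194, 22.9 kb upstream of its start and in the last exon of the neighbour *Atp9b*, where the mean went from 9.58 to 6.97. The mRNA of *Atp9b*, looked at after this peak was seen, was counted at 14751, 14162 and 15483 in WT and at 15093, 15970 and 14994 in UTX TCD libraries. These values overlapped (adjusted p = 0.412 from limma).

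Both peaks named for *Nfatc3* lay inside its upstream neighbour *Dus2*, the second over part of an exon. They went from 8.09 to 7.35 at chr8:106038273-106038673 and from 10.58 to 9.83 at chr8:106052743-106053143. *Dus2*, also looked at after its peaks were seen, was counted at 2071, 2470 and 2299 in WT and at 1566, 1585 and 1969 in UTX TCD libraries, a log2 fold change of -0.42 (adjusted p = 0.0106 from limma, SE 0.10). *Dus2* and *Nfatc3* were both lower in RNA, and to which of them the peaks belong was not tested.

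*Ppp3cc* had a lower and a higher peak, both in intron 1 and about 1 kb apart. The peak at chr14:70271362-70271762 went from 8.10 to 7.62, and the peak at chr14:70272412-70272812 from 10.27 to 10.63. *Cabin1* had 1 peak, in intron 22, at chr10:75721934-75722334, with 9.60 in WT and 10.12 in UTX TCD cells.

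*Rcan1* had the only promoter peak among the 40, at chr16:92399910-92400310, and it was among the larger gains. Its log2 concentration was 4.10 in WT and 6.63 in UTX TCD cells, or a mean of 17.2 reads against 99.3, a 5.78-fold difference that was larger in size than those of 98.1% of all listed peaks or equal to them. The peak sits on the start of the shorter RefSeq transcript of *Rcan1*, which begins inside the gene at 92400078 on the minus strand. The other peak of *Rcan1*, in intron 1 of the longer transcript, went from 6.43 to 7.02. The total *Rcan1* mRNA was level between the genotypes, as given above, and the counts per gene do not show how much of it came from this start.

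The sequence of that promoter is shown because it had the largest gain among the peaks of the 10 genes. It holds the 232 bases directly upstream of the start that lie inside the peak, from RefSeq promoters on GRCm38.p6, read 5′ to 3′ on the minus strand at chr16:92400079-92400310. Capitals mark GGAAA, the core bound by NFAT, on either strand (TTTCC on the other), and TGANTCA, the AP-1 motif, on either strand.

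*Rcan1* short-transcript promoter: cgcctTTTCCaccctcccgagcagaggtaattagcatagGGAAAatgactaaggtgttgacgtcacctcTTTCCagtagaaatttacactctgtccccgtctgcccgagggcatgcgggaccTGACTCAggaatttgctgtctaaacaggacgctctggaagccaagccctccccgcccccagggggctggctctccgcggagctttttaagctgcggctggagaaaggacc

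This stretch holds 3 matches to GGAAA and 1 to TGANTCA. Among 23908 listed peaks on assembled chromosomes, 73.0% hold at least 1 GGAAA and 12.8% at least 1 TGANTCA in their 401 bases. Such a match describes the letters and does not show that a factor binds.

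Next are the central 300 bases of the peak with the largest gain at *Ppp3ca*, shown because every listed peak of this gene and its mRNA were higher in UTX TCD cells, with the same motifs in capitals. They are on the plus strand of GRCm38.p6 at chr3:136941065-136941364, between genes.

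*Ppp3ca* downstream peak: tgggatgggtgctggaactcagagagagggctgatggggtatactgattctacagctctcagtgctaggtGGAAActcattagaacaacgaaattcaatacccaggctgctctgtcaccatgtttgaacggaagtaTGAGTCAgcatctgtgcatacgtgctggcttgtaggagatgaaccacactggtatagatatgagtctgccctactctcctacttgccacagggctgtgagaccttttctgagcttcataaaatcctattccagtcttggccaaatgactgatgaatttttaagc

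This stretch downstream of *Ppp3ca* holds 1 match to GGAAA and 1 to TGANTCA. Over the peaks of the 10 genes, GGAAA occurred in 23 of the 27 higher peaks and in 11 of the 13 lower ones, where 72.9% of all higher and 73.2% of all lower listed peaks hold it. TGANTCA occurred in 6 of the 27 higher peaks and 1 of the 13 lower ones, against 11.6% of all higher and 15.5% of all lower listed peaks.

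Around the 10 genes, 6 lists of pathway genes were read from the same fit. Of 69 genes in these lists 59 were tested, and 11 were higher and 12 lower in UTX TCD cells at an adjusted p under 0.05 in limma, beside 20.2% and 20.5% of all genes tested. Of the 59, 7 passed both this and the limit of 0.5, beside 17.6% of all genes tested, and the counts of each list below are to be read against the same shares. The count past both limits was 4 without WT replicate 1 and 11 without WT replicate 2, and 7 were higher and 7 lower without WT replicate 1, while 7 were higher without WT replicate 3. The balance of directions moved with the scaling, to 14 higher and 9 lower with equal totals and to 9 higher and 14 lower with TMM. The median log2 fold change of all tested genes was -0.00018.

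The genes of calcium entry and the partners of calcineurin comprised 14 genes, with 13 tested, 2 higher and 5 lower, and a median log2 fold change of -0.09. The 2 higher genes encode IP3 receptors, the channels that release calcium from the endoplasmic reticulum. The others of the list, looked at after their values were seen, included *Itpr3*, the third receptor gene, which did not pass (log2 fold change 0.02, adjusted p = 0.837 from limma). The lower genes included *Ppp3r1* and the calcium channel gene *Orai2* (log2 fold change -0.45, adjusted p = 0.00832 from limma). *Itpr2* was counted at 58985, 59683 and 59515 in WT and at 80908, 81527 and 89711 in UTX TCD libraries, a log2 fold change of 0.50 (adjusted p = 7.75e-05 from limma, SE 0.05). The groups were far apart, and edgeR and DESeq2 placed 1 gene of the list past both limits where limma placed 0, with 0 also at an unadjusted p. *Itpr1* rose as well, from 17921 ± 585 to 22149 ± 465 (SD, n = 3 each; log2 fold change 0.31, adjusted p = 0.000485 from limma, SE 0.04).

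Of 8 other inhibitors and scaffolds of calcineurin or NFAT, 6 were tested and 1 passed. That was *Fkbp1a*, which encodes FKBP12, the protein through which tacrolimus blocks calcineurin, counted at 11069, 11439 and 10864 in WT and at 9135, 9248 and 9110 in UTX TCD libraries. All its UTX TCD values were lower (log2 fold change -0.28, adjusted p = 0.000698 from limma, SE 0.04). *Chp1*, a calcineurin B homologue, went from 11920 ± 631 to 10768 ± 601 (SD, n = 3 each) and did not pass the test (adjusted p = 0.0665 from limma), and it passed under 3 of the 15 alternatives, with the replicate number as a block (adjusted p = 0.0305), with TMM scaling and without UTX TCD replicate 1.

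The kinases that rephosphorylate NFAT comprised 8 genes, all tested, with 1 higher and 1 lower. These were the glycogen synthase kinase 3 paralogs. *Gsk3b* was counted at 22268, 23685 and 22872 in WT and at 26304, 27297 and 26417 in UTX TCD libraries, while *Gsk3a* was counted at 21366, 20316 and 18453 and at 18101, 15826 and 15421. In both genes the groups did not overlap, and the paralogs differed in opposite directions, with log2 fold changes of 0.22 and -0.29, and with limma adjusted p of 0.00288 (SE 0.04) and 0.0127 (SE 0.07). Without WT replicate 1, the adjusted p of *Gsk3a* was 0.0519, and its range over the alternatives was 0.00126 to 0.0519.

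Of 24 known NFAT target genes of activated T cells, 20 were tested, 6 were higher, 3 were lower and 11 did not pass, with a median log2 fold change of 0.17. With edgeR the counts were 4 higher and 2 lower, and with DESeq2 4 and 4. *Xcl1*, a chemokine for cross-presenting dendritic cells, was counted at 992, 1358 and 978 in WT and at 220, 227 and 447 in UTX TCD libraries, a log2 fold change of -1.95. *Nr4a2*, an orphan nuclear receptor induced by antigen, was counted at 261, 486 and 275 in WT and at 927, 837 and 1326 in UTX TCD libraries, a log2 fold change of 1.63 (adjusted p = 0.000935 from limma, SE 0.25). So *Xcl1* and *Nr4a2*, which had the lowest adjusted p among the targets past both limits, differed in opposite directions, each without overlap of the groups. *Tox*, looked at after its values were seen, had a lower adjusted p than either (4.88e-05, log2 fold change 0.46, higher in UTX TCD cells) and did not pass the fold limit.

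*Irf4*, a factor that scales with receptor signal strength, was counted at 2046, 3366 and 2097 in WT and at 3541, 3440 and 4267 in UTX TCD libraries (log2 fold change 0.62, adjusted p = 0.0212 from limma, SE 0.18). WT replicate 2 came close to the UTX TCD values. The call was lost without WT replicate 1, WT replicate 3 or UTX TCD replicate 3 (adjusted p 0.0742, 0.0662 and 0.0726) and in DESeq2 (0.0658), and the adjusted p over the alternatives went down to 0.000497. *Havcr2*, which encodes the inhibitory receptor TIM-3, was low, its reads numbering 18, 22 and 19 for WT and 1, 4 and 5 for UTX TCD (log2 fold change -2.23, adjusted p = 0.00301 from limma, SE 0.43). The value of UTX TCD replicate 1 lies under the floor of 3 reads, and with a pseudocount of 8 the log2 fold change was -1.23.

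For NFAT5, 7 osmotic target genes were listed, 5 of which were tested, with 2 higher. *Slc5a3*, the sodium and myo-inositol cotransporter, was counted at 4939, 6656 and 5374 in WT and at 9510, 10504 and 9147 in UTX TCD libraries (log2 fold change 0.79, adjusted p = 0.000352 from limma, SE 0.10). *Hspa4l*, an osmotic stress chaperone, was counted at 4001, 5562 and 4204 and at 6881, 6846 and 6081 (log2 fold change 0.54, adjusted p = 0.0052 from limma, SE 0.11). Both stood higher in every UTX TCD library, and WT replicate 2 was the highest WT library for both. The 3 other tested genes of the list did not pass. *Slc38a2* had a log2 fold change of 0.11 (adjusted p = 0.0949 from limma) and *Slc6a6* one of -0.06 (adjusted p = 0.351 from limma). A link of these levels to *Nfat5* was not tested. Another gene of the list, *Hspa1b*, looked at after its values were seen, was counted at 1476, 199 and 1471 in WT and at 335, 369 and 104 in UTX TCD libraries. Its groups overlapped through WT replicate 2, and its log2 fold change of -1.69 did not pass the test (adjusted p = 0.107 from limma). With edgeR 2 genes of the list were higher and 1 lower, and with DESeq2 2 and 0. The list's median log2 fold change was 0.11, and *Slc6a12* had 0 reads in all 6 libraries.

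Among 8 genes for MEF2 factors and class II histone deacetylases, the nuclear partners of *Cabin1*, 7 were tested and 2 were lower. *Hdac4* was counted at 7572, 7583 and 7534 in WT and at 5367, 5428 and 5579 in UTX TCD libraries, a log2 fold change of -0.47 (adjusted p = 4.18e-05 from limma, SE 0.04). Its values were tightly grouped in both genotypes. *Hdac7*, of the same deacetylase class, went from 43898 ± 4045 to 36916 ± 1483 (SD, n = 3 each; log2 fold change -0.25, adjusted p = 0.0175 from limma). Its adjusted p was 0.0624 without WT replicate 1, 0.0578 without WT replicate 3 and 0.0537 without UTX TCD replicate 3, and it ranged from 0.00198 to 0.0624 over the alternatives.

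Markers of the sorted cells and of other cells were summed in each library. The 6 CD8 T cell markers summed to 876928, 823383 and 844422 in WT and to 863003, 832010 and 763298 in UTX TCD libraries, led by *Cd8a*, with 1 higher and 3 lower. The 7 progenitor and gate markers, led by *Tcf7*, summed to 572931, 594595 and 531010 in WT and to 547414, 516838 and 529977 in UTX TCD libraries, with 1 higher and 1 lower. *Il7r* of this list, looked at after its values were seen, was counted at 38077, 79127 and 37105 in WT and at 40509, 39892 and 38044 in UTX TCD libraries, so WT replicate 2 stood apart. Over all genes too, WT replicate 2 differed more from WT replicates 1 and 3 than these did from each other (chi-square per gene 68.4 and 104 against 27.4). UTX TCD replicate 3, on which the size of the *Ppp3cc* difference and the sign of *Ppp3cb* depend, likewise differed more from UTX TCD replicates 1 and 2 (30.9 and 44.2) than these did from each other (11.9). The reasons were not tested. The lower gene of the list, *Cxcr6*, which the labelled gate removes as a surface protein, was counted at 12757, 9619 and 13724 in WT and at 5286, 5994 and 5695 in UTX TCD libraries.

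Some markers of other cells moved with the genotype. The 6 B cell markers summed to 3030, 2538 and 2880 in WT and to 1498, 1329 and 1502 in UTX TCD libraries. *Cd79b*, their most abundant gene and the 1 lower gene, went from 2299 ± 320 to 583 ± 98.8 (SD, n = 3 each), and the lower sum followed it. Of the list, 2 were higher, *Ms4a1* and *Cd22*, the latter going from 86.8 ± 12.9 to 342 ± 139. The call of *Ms4a1* was lost in 4 of 14 alternatives, and *Pax5* had at most 15 reads in any library. The 3 CD4 T cell markers, led by *Foxp3*, summed to 475, 373 and 442 in WT and to 373, 350 and 344 in UTX TCD libraries, with 2 lower, of which *Cd4* lost its call in 8 of 14 alternatives, DESeq2 among them. The 4 NK cell markers summed to 13406, 15370 and 13193 in WT and to 19118, 19097 and 26867 in UTX TCD libraries, with 1 higher, and nearly all of it was *Eomes*, which CD8 T cells express too. The 8 myeloid and dendritic cell markers, led by *Cd68*, summed to 977, 964 and 794 in WT and to 1246, 999 and 1209 in UTX TCD libraries, with 1 higher and 1 lower. The 8 stromal, erythroid and pancreatic markers, nearly all of them *Pecam1*, summed to 31856, 29844 and 31983 in WT and to 37752, 37892 and 33819 in UTX TCD libraries, with 1 higher and 1 lower. The higher gene was *Pecam1*, and the sum followed it, so the sum says little about the other genes of the list. *Ins2* had 0 reads in all 6 libraries. These sums were small beside that of the CD8 T cell markers, and the part of other cells in the differences of the 10 genes was not tested.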

How the data were processed

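RNA-seq came from 3 libraries per genotype. After FastQC, the authors mapped to mm10 using HISAT2 2.2.1, took counts from featureCounts and scaled libraries by DESeq2 size factors, giving the deposited signal per gene and library. Gene annotation and strand setting are not stated. Reads were recovered from the steps of the values, and 100% came out whole within 0.1 read. For ATAC-seq the authors trimmed reads with Cutadapt, aligned them with Bowtie2 (unique, MAPQ 30), called peaks with MACS2, compared genotypes with DiffBind and annotated peaks with HOMER, and the deposited log2 concentrations are means of 3 libraries per genotype. Whether read ends were moved for the transposase is not stated. The deposited tables also hold the authors' own fold changes, their errors, p-values and FDR, which are not used here as values.

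The test used limma 3.58.1 (R 4.3.3, trended eBayes) for genes whose normalized counts averaged 10 or more, after adding 1 and taking log2, with a term for genotype alone and Benjamini-Hochberg adjustment over all genes tested. Folds are UTX TCD over WT, and adding 1 makes those of low genes understate the change. The design had allowed for normalized values, and this test was kept as planned. A trial on simulated counts had far fewer changed genes than were called here, so it does not show how the test performs on these libraries. edgeR 4.0.16 on the recovered reads called 5865 genes and DESeq2 1.42.0 called 5958 at an adjusted p under 0.05, against 5887 in limma. Other alternatives were the pseudocount (0.5 and 8), the filter (none and 100), TMM scaling, equal totals, the replicate block, a fold limit of 1.5, each library left out, and for peaks a larger difference, a higher concentration and the gene body with 5 kb on each side.

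Depth ranged from 61512402 to 193568919 reads per library. Floors of 3 reads cover counting error only. Coordinates and exon lengths are from GENCODE M21, and sequences from GRCm38.p6 (samtools 1.23.1) and the RefSeq promoter table of that build. Tables were made with Python 3.11.15.

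The genes named are the 10 members, the other genes of these families, *Kdm6a*, of each pathway list up to 4 genes with the lowest adjusted p past both limits or the 2 lowest where none passed, the most abundant marker of each list, the 5 genes with the highest Pearson r to *Nfatc1* and *Nfatc2*, and, where reported, of each member's peaks the one with the largest difference and any at a promoter. Other genes and peaks named were chosen after their values were seen. The members and the lists were chosen with earlier results of these data known. Replicate numbers come from the labels. Some items and the results that rest on them are not reported here.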

Additional observations from a re-analysis of the deposited data

How the results depend on the processing

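The 6 genes of the NFAT and calcineurin families past the test kept their direction and an adjusted p under 0.05 in all 15 alternatives run for each, and the 4 others stayed above 0.05 in all 15. Their log2 fold changes under the alternatives ran from -0.24 to -0.16 for *Nfatc1*, -0.48 to -0.34 for *Nfatc2*, -0.34 to -0.24 for *Nfatc3*, 0.19 to 0.27 for *Nfat5*, 0.38 to 0.46 for *Ppp3ca* and -0.54 to -0.36 for *Ppp3cc*. *Ppp3cb*, at 0.04 with all libraries, turned to -0.0191 without UTX TCD replicate 3 and stood at 0.0716 without UTX TCD replicate 1. With each library left out in turn, 0 to 1 of the 10 genes passed both limits, the 1 being *Ppp3cc* without UTX TCD replicate 3. In the pathway lists, 7 to 13 genes were higher, 7 to 13 lower and 4 to 11 past both limits with a library left out, where the fits had fewer libraries. The causes of these shifts between libraries were not tested.

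Of the 40 peaks, 7 higher and 3 lower were left at a difference over 1, and 11 higher and 7 lower at a mean concentration above the median of the listed peaks, which by their construction keep fewer peaks. Counting instead all listed peaks in the gene bodies and 5 kb on each side, whatever gene they are named for, 23 were higher and 11 lower.

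Libraries with the same number were not paired by the labels. The deviations of same-numbered libraries from their group means correlated at 0.305, -0.200 and 0.0897, and of the WT libraries only replicate 1 correlated best with its own number. With the replicate number as a block, 5702 genes passed an adjusted p of 0.05 against 5887 without it, and the block changed no call among the 10 genes.

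Depth limits the low genes most in UTX TCD replicate 1, the shallowest library, and has little weight at the levels of the 10 genes, whose lowest count of reads in any library was 764.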
